A study of Mus musculus with 7 samples.

Results

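NF-kB is a family of transcription factors, and the genes described here encode its subunits and the proteins that restrain them. They were followed in OT-I cells, CD8 T cells of mice carrying a transgenic T cell receptor against an ovalbumin peptide. The members were given as a list of 10 gene symbols: Nfkb1, Nfkb2, Rel, Rela, Relb, Nfkbia, Nfkbid, Nfkbie, Tnfaip3 and Bcl3. Every probe set carrying 1 of these as its single symbol in the platform annotation was taken, which gave 16 probe sets of 9 genes out of 45101 probe sets and 18194 named genes in the series. Nfkb1 had no such probe set in the annotation used here and was not analysed. All 9 genes passed the filter on low values, log2 of at least 5 on at least 2 arrays, and each was represented by its brightest probe set. The rule that chose the members used no expression value, though earlier results of these data were known when they were listed.

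The arrays fall into 4 groups, all of C57BL/6 strain and all of Ly5.1 OT-I donor cells that were CD44lo and dyed with CFSE at transfer. RIP-OVAhi cells (n = 2) had divided at least 2 times in RIP-OVAhi hosts, which make ovalbumin under the rat insulin promoter and serve as a model of deletional tolerance. They were sorted after 60 h from sacral and pancreatic lymph nodes pooled from 20 mice per array. OCS/LPS cells (n = 2) had divided at least 2 times in hosts given splenocytes coated with ovalbumin together with lipopolysaccharide, a model of priming, and came from the spleens of 10 pooled mice per array at 60 h. The single Rag array (n = 1) held cells that had divided at least 2 times in Rag-/- hosts, which lack T and B cells, over 5 days of lymphopenia-driven proliferation, again from 10 pooled spleens. Naive cells (n = 2) were undivided cells recovered at 60 h from the spleens of 10 pooled B6 hosts without the antigen. Tissue coincides with the RIP-OVAhi group, and time with the Rag group, so neither can be told apart from the host.

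In a resting T cell the NF-kB dimers are held in the cytoplasm by inhibitors of the IkB family. Signals from the antigen receptor, costimulatory receptors of the TNF receptor family or Toll-like receptors activate the IkB kinase, the inhibitor is degraded and the dimer enters the nucleus. Several inhibitors are themselves transcribed by NF-kB, which closes a negative feedback loop. Rel, Rela and Relb carry transactivation domains, whereas Nfkb1 and Nfkb2 encode precursors that are processed to the DNA-binding subunits p50 and p52. Nfkbid and Bcl3 encode nuclear proteins of the IkB family that bind these subunits on DNA, and Tnfaip3 encodes A20, a ubiquitin-editing enzyme that shuts off signalling upstream of the kinase.

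The DNA before the members' start sites is shown for the 4 members whose RNA passed the test in at least 1 comparison below, because these genes are known targets of the factors they encode or restrain. RefSeq sequences of GRCm38.p6 were found for 8 of the 10 members. Each line gives the 250 bases before the gene's start, 5′ to 3′ on the gene's strand, with matches to the kappaB consensus, the general NF-kB binding motif, in capitals on either strand; overlapping matches are joined.
Rel, chr11:23770970-23771219, minus strand: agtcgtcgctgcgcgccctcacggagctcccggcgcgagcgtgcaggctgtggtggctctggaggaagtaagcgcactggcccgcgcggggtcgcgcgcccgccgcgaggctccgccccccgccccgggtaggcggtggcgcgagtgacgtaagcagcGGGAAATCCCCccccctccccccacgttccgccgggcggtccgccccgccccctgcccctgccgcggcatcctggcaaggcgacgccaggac
Tnfaip3, chr10:19015411-19015660, minus strand: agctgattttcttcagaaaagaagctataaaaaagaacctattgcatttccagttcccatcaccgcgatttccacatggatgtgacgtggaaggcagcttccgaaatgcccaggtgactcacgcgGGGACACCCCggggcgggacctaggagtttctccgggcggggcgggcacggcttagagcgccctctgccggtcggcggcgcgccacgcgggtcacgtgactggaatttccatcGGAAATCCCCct
Nfkbia, chr12:55492648-55492897, minus strand: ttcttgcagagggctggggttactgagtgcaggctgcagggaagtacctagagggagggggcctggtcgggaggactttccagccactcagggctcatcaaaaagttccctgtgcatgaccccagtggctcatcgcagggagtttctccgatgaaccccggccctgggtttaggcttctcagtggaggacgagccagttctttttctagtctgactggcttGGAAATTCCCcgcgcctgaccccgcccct
Nfkbie, chr17:45555450-45555699, plus strand: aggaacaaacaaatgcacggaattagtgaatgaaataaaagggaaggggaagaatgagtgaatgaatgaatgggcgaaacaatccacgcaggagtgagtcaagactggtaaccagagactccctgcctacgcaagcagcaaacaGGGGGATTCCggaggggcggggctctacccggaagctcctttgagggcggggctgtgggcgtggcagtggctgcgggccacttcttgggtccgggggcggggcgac
The stretch in Rel begins 92 bases before the start, that in Nfkbia 29 bases and that in Nfkbie 106 bases, and Tnfaip3 has 2 stretches, which begin at 125 and 12 bases. Nfkb2 also held a match, and Rela, Nfkbid and Bcl3 held none in their windows. The Nfkb2 start site used, 1 of 3 listed, lies 3743 bases from the annotated start of the gene. Those of Rela and Bcl3 lie 99 and 69 bases from it. Thus 5 of the 8 members had a match in a single window each, against 3.9% of the 32851 upstream windows of this length in the RefSeq table. That table can hold several windows per gene. A match describes letters in the reference sequence and says nothing about binding in these cells.

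The arrays had closely similar value distributions, with medians of 2.97 to 3.08 on the log2 scale. Across tested genes the 2 arrays of a group correlated at r = 0.991 in RIP-OVAhi cells, 0.991 in OCS/LPS and 0.975 in naive cells. The T cell markers Cd3d, Cd3e, Cd3g, Cd8a, Cd8b1, Thy1 and Cd2 read 9.94 to 13.2 on every array. Among markers of other cells, the summed level of 5 MHC class II genes was 5.73 and 5.92 in RIP-OVAhi cells, 7.69 and 8.43 in OCS/LPS, 9.17 in Rag and 7.70 and 7.72 in naive cells, and that of 7 myeloid genes was 5.95 to 6.11 in RIP-OVAhi cells and 8.27 to 9.96 on the other arrays. Of the B cell genes, Cd79a and Pax5 lay between 1.98 and 2.24 everywhere, while Cd79b read 7.89 and 8.43 in RIP-OVAhi cells, 8.18 and 8.42 in OCS/LPS cells, 6.84 in Rag and 7.10 and 8.27 in naive cells. Ms4a1 read 3.74 and 3.98 in RIP-OVAhi cells, 4.92 and 6.67 in OCS/LPS cells, 3.74 in Rag and 4.73 and 5.72 in naive cells. Cd4, Foxp3, Il2ra and Zbtb7b, 4 genes of CD4 and regulatory T cells, did not pass the filter on low values. The summed level of 10 genes that respond within minutes to stress and handling also moved with the groups: it was 13.6 and 14.5 in RIP-OVAhi cells, 12.5 and 11.7 in OCS/LPS, 10.7 in Rag and 12.5 and 12.3 in naive cells, with Fos, Jun, Dusp1 and the heat shock gene Hspa1b highest in RIP-OVAhi replicate 2. Ier2 went the other way, at 9.87 and 9.68 in RIP-OVAhi and 10.62 and 10.58 in naive cells. Against naive, 3 of the 8 tested handling genes were called higher and 1 lower in RIP-OVAhi, where 18.1% and 11.6% of all tested genes were. In RIP-OVAhi, 9 of these 10 genes were higher in replicate 2 than in replicate 1. They include Fosb and Atf3, which did not pass the filter on low values. Of the 9 NF-kB genes 3 were higher in replicate 2, namely Rel, Tnfaip3 and Bcl3. Rel and Tnfaip3 are the members called higher in RIP-OVAhi against naive below. The log2 difference between the 3′ and 5′ probe sets of Gapdh, which widens as RNA is degraded or shortened, was 2.08 and 2.03 in RIP-OVAhi cells, 1.85 and 1.89 in OCS/LPS, 2.21 in Rag and 2.59 and 2.43 in naive cells. The part of these differences in the results below was not tested. Fewer cells with a transcript and less of it per cell cannot be told apart in these sorted pools.

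**Figure D1:**
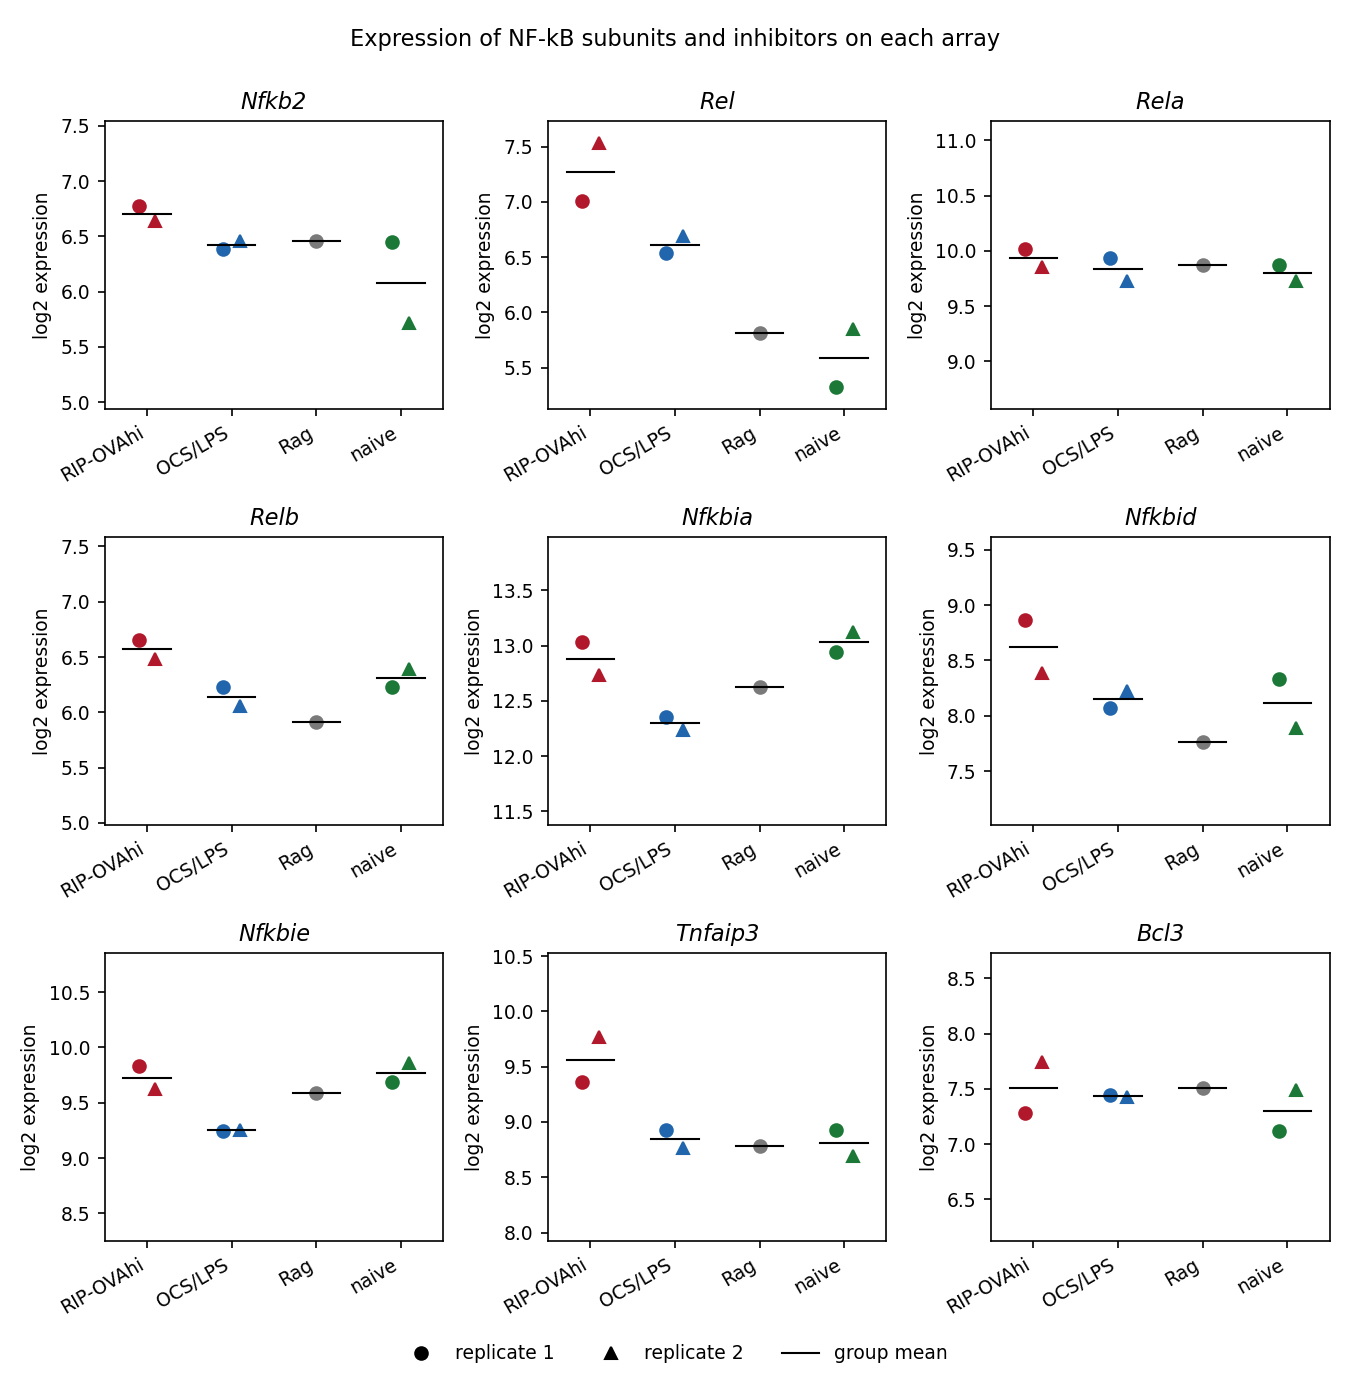
Each panel plots 1 gene's log2 expression on every array, with groups on the x axis, circles for replicate 1, triangles for replicate 2 and a bar at the group mean; every y axis spans the same number of log2 units. Rel stepped down across the groups to its lowest value on a naive array, Tnfaip3 was highest on the RIP-OVAhi arrays, and Nfkbia and Nfkbie were lowest on the OCS/LPS arrays, while Rela hardly moved.

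Rel, which encodes c-Rel, the subunit most closely tied to antigen receptor signalling and proliferation in lymphocytes, had the widest spread of the 9 genes, 2.20 log2 units over the arrays. It read 7.01 and 7.53 in RIP-OVAhi cells, 6.54 and 6.69 in OCS/LPS cells, 5.82 in Rag cells and 5.33 and 5.85 in naive cells. Both antigen-driven groups lay above all naive arrays and above Rag, the RIP-OVAhi arrays lay above the OCS/LPS arrays, and the Rag value fell between the naive arrays. The rise against naive was 3.20-fold in RIP-OVAhi cells (log2 1.68, SE 0.25, adjusted p = 0.00539 in limma) and 2.03-fold in OCS/LPS cells (log2 1.02, SE 0.25, adjusted p = 0.0247). RIP-OVAhi exceeded Rag 2.74-fold (log2 1.45, SE 0.30, adjusted p = 0.0262). The difference of 0.66 between RIP-OVAhi and OCS/LPS (95% interval 0.06 to 1.26, adjusted p = 0.261), that of 0.79 between OCS/LPS and Rag (0.06 to 1.53, adjusted p = 0.125) and that of 0.23 between Rag and naive (-0.51 to 0.96, adjusted p = 0.739) did not pass the test. The OCS/LPS call was lost without OCS/LPS replicate 1 or 2 or naive replicate 1 (adjusted p = 0.103, 0.147 and 0.0659), and the call against Rag without any 1 of the RIP-OVAhi or OCS/LPS arrays (0.0633 to 0.131).

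Rela, which encodes p65, the transactivating subunit of the classical dimer, was nearly flat. Its values were 10.02 and 9.85 in RIP-OVAhi cells, 9.93 and 9.73 in OCS/LPS, 9.87 in Rag and 9.87 and 9.73 in naive cells, so all groups overlapped. Against naive it differed by 0.14 in RIP-OVAhi (95% interval -0.21 to 0.48), 0.03 in OCS/LPS (-0.31 to 0.37) and 0.07 in Rag cells (-0.35 to 0.49).

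Relb encodes the partner of p52 in the alternative pathway. It read 6.66 and 6.48 in RIP-OVAhi cells, 6.23 and 6.05 in OCS/LPS, 5.91 in Rag and 6.23 and 6.39 in naive cells. The RIP-OVAhi arrays lay above every other array and the Rag array below every other. The order of the means was RIP-OVAhi, naive, OCS/LPS, Rag, and the widest gap, RIP-OVAhi against Rag, was 0.66 (SE 0.17, adjusted p = 0.0506), just short of the threshold; it passed without either naive array (adjusted p = 0.0293). RIP-OVAhi differed from OCS/LPS by 0.43 (95% interval 0.09 to 0.77, adjusted p = 0.208) and from naive by 0.26 (-0.08 to 0.60, adjusted p = 0.209).

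Nfkb2, the precursor of p52, read 6.77 and 6.64 in RIP-OVAhi cells, 6.38 and 6.46 in OCS/LPS, 6.46 in Rag and 6.45 and 5.72 in naive cells. The divided cells lay close together and the naive arrays were 0.73 apart, the widest gap between replicates of any of the 9 genes. None of its differences passed the test, and that of RIP-OVAhi against naive was 0.62 (SE 0.24, adjusted p = 0.108). Without naive replicate 1, the RIP-OVAhi difference from naive was 0.99, that of OCS/LPS 0.70 and that of Rag 0.74. With naive replicate 2 left out instead, they were 0.26, -0.03 and 0.01, in that order. The larger values thus rested on naive replicate 2, which read 5.72.

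Of the cytoplasmic inhibitors, Nfkbia encodes IkB-alpha, the rapidly resynthesised inhibitor of Rela and Rel dimers. Its brightest probe set read 13.03 and 12.73 in RIP-OVAhi cells, 12.35 and 12.24 in OCS/LPS, 12.62 in Rag and 12.94 and 13.12 in naive cells. The OCS/LPS arrays were lower than all others, and the RIP-OVAhi arrays overlapped the naive ones. Nfkbia fell by 0.74 on the log2 scale in OCS/LPS cells against naive (SE 0.15, adjusted p = 0.0159), to 0.601 of the naive level. In RIP-OVAhi cells it differed from naive by -0.15 (95% interval -0.53 to 0.23, adjusted p = 0.504) and in Rag cells by -0.41 (-0.87 to 0.06, adjusted p = 0.331). The OCS/LPS call was lost without OCS/LPS replicate 1 or 2 (adjusted p = 0.0758 and 0.111).

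Nfkbie, which encodes IkB-epsilon, an inhibitor that holds Rel and Rela dimers, followed the same order. It read 9.83 and 9.62 in RIP-OVAhi cells, 9.25 and 9.26 in OCS/LPS, 9.59 in Rag and 9.69 and 9.86 in naive cells. The OCS/LPS arrays were again the lowest and nearly equal. Nfkbie fell by 0.52 in OCS/LPS cells against naive (SE 0.14, adjusted p = 0.031; adjusted p = 0.0516 with the replicate number as a block). Leaving out any 1 of the RIP-OVAhi or OCS/LPS arrays or naive replicate 2 also ended this call (0.0507 to 0.143). In RIP-OVAhi cells the difference from naive was -0.05 (95% interval -0.38 to 0.29, adjusted p = 0.826). Over the 7 arrays Nfkbia and Nfkbie correlated at r = 0.979, the only 1 of the 36 pairs of these genes above 0.9; the points share arrays and group structure, so this is a description.

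No difference of the genes of the nuclear IkB proteins passed the test. Nfkbid, which encodes IkB-NS, read 8.87 and 8.38 in RIP-OVAhi cells, 8.07 and 8.22 in OCS/LPS, 7.77 in Rag and 8.33 and 7.89 in naive cells. The RIP-OVAhi arrays lay above all others and the Rag array below all others, with a difference of 0.86 between these groups (SE 0.27, adjusted p = 0.0864) and of 0.51 between RIP-OVAhi and naive (SE 0.22, adjusted p = 0.139). Bcl3, which encodes a coactivator for p50 and p52 homodimers, read 7.28 and 7.74 in RIP-OVAhi cells, 7.44 and 7.42 in OCS/LPS, 7.51 in Rag and 7.12 and 7.49 in naive cells. The ranges of the RIP-OVAhi and naive arrays overlapped and took in the OCS/LPS values, and the difference of RIP-OVAhi from naive was 0.21 (95% interval -0.29 to 0.71, adjusted p = 0.487).

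Tnfaip3, the gene of A20, read 9.36 and 9.77 in RIP-OVAhi cells, 8.93 and 8.76 in OCS/LPS, 8.78 in Rag and 8.93 and 8.69 in naive cells. The RIP-OVAhi arrays were above all others, and the remaining groups overlapped. It rose 1.69-fold in RIP-OVAhi against naive (log2 0.76, SE 0.18, adjusted p = 0.0268), while OCS/LPS differed from naive by 0.04 (95% interval -0.41 to 0.48) and Rag by -0.03 (-0.58 to 0.52). The direct differences of RIP-OVAhi from OCS/LPS (0.72, SE 0.18, adjusted p = 0.131) and from Rag (0.78, SE 0.22, adjusted p = 0.0643; 0.0483 without either naive array) did not pass. The call against naive was lost without either RIP-OVAhi array, either OCS/LPS array or naive replicate 2 (adjusted p = 0.0533 to 0.154). RIP-OVAhi replicate 2, the array with the most Tnfaip3, Rel and Bcl3, also had the most Fos, Jun, Dusp1 and Hspa1b RNA, at 12.85, 10.10, 9.07 and 13.28, against 11.96, 9.05, 8.02 and 12.38 in replicate 1. Rel was higher in replicate 2 in OCS/LPS and naive cells too, where the summed handling genes were lower in replicate 2. Tnfaip3 was lower in replicate 2 in both, and Bcl3 was lower in OCS/LPS and higher in naive cells. Arrays numbered 2 held female cells, as given below. The part of handling or sex in these values was not tested.

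**Figure D2:**
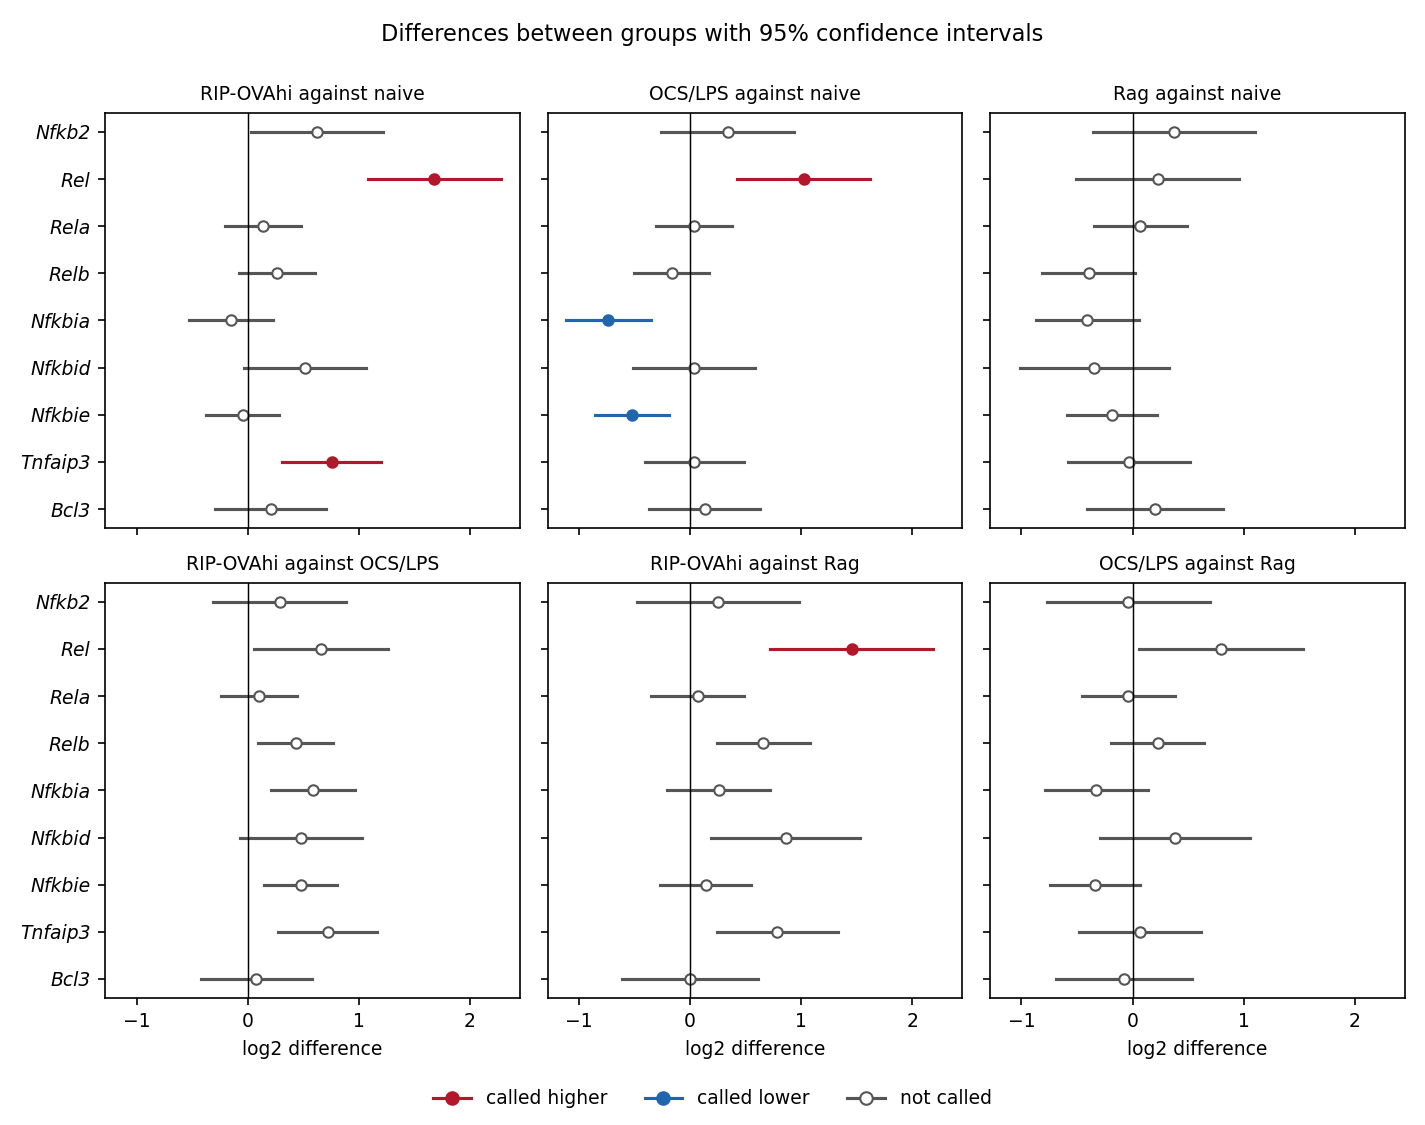
The x axis of each panel is the log2 difference between 2 groups, with 1 row per gene, points at the estimate and lines over the 95% confidence interval; filled red and blue points are called higher and lower, open points are not called. Rel was called in 3 of the 6 comparisons, and in the panel of RIP-OVAhi against OCS/LPS all 9 points lie right of 0 with none called. Of all tested genes, 41.9% had a difference above 0 in that comparison.

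Against naive, 2 of the 9 members rose in RIP-OVAhi cells and 0 fell, where 29.6% of the 8203 tested genes were called, 18.1% higher and 11.6% lower. In OCS/LPS cells 1 rose and 2 fell against naive, with 32.9% of all genes called, 20.5% higher and 12.3% lower. These shares of the members were near the background. The median difference of the 9 genes from naive was 0.26 in RIP-OVAhi cells and 0.04 in OCS/LPS, beside 0.06 and 0.08 over all tested genes; these comparisons share the naive arrays. In Rag cells limma called 0 members against naive, and 2.73% of all genes, 2.15% higher and 0.585% lower. Between RIP-OVAhi and Rag, 1 of 9 rose, with 16.7% of all genes called, 9.84% higher and 6.9% lower. Between OCS/LPS and Rag limma called 0 of 9, with 18.1% of all genes called, 11.2% higher and 6.9% lower. Only Rel reached a 2-fold difference, in RIP-OVAhi and OCS/LPS against naive and in RIP-OVAhi against Rag. Of all tested genes, 14%, 15.2% and 13.1% did so in these comparisons, in that order.

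The comparison of RIP-OVAhi with OCS/LPS cells asks what sets tolerance apart from priming at the same time after transfer. All 9 members had higher means in RIP-OVAhi cells, and in 7 of them both RIP-OVAhi arrays lay above both OCS/LPS arrays. The differences ran from 0.08 for Bcl3 to 0.72 for Tnfaip3, with a median of 0.48 beside -0.05 over all tested genes. Over all tested genes, 41.9% had a higher mean in RIP-OVAhi cells and 23.5% had both RIP-OVAhi arrays higher. None of the 9 passed limma's test after adjustment, where 2.91% of all genes were called, 1.61% higher and 1.3% lower. Nfkbia differed by 0.58 (SE 0.15, adjusted p = 0.142) and Nfkbie by 0.48 (SE 0.14, adjusted p = 0.164). The tissues of these groups differ, and MHC class II, myeloid and handling markers moved with them as given above.

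Genes measured by more than 1 probe set were Nfkbia, Nfkbie, Nfkb2 and Tnfaip3. For Nfkbia, 4 of 5 probe sets were bright enough to test, and in a fit of all probe sets 3 of the 4 were called lower in OCS/LPS against naive, with differences of -0.74 for 1438157_s_at (adjusted p = 0.0192), -0.51 for 1420088_at (adjusted p = 0.0497) and -1.0 for 1448306_at (adjusted p = 0.00759). The remaining one, 1449731_s_at, differed by -0.40 (adjusted p = 0.0988). All 4 therefore pointed down. In RIP-OVAhi cells 1448306_at read 9.40 and 9.62, below 9.87 and 10.18 in naive cells (difference -0.52, adjusted p = 0.0644). Both RIP-OVAhi arrays of 1420088_at also lay below both naive arrays, at 12.28 and 12.39 against 12.50 and 12.46, while 1438157_s_at and 1449731_s_at overlapped. The second Nfkbie probe set, 1431843_a_at, read 7.18 and 7.43 in OCS/LPS and 7.43 and 7.45 in naive cells (-0.14, adjusted p = 0.593), so the fall of Nfkbie rested on 1458299_s_at. The second Nfkb2 probe set, 1429128_x_at, differed from the first in sign in all 3 comparisons with naive, without a call in either. The probe sets 1420089_at of Nfkbia and 1450829_at of Tnfaip3 stayed below log2 5 on every array and were not tested.

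**Figure D3:**
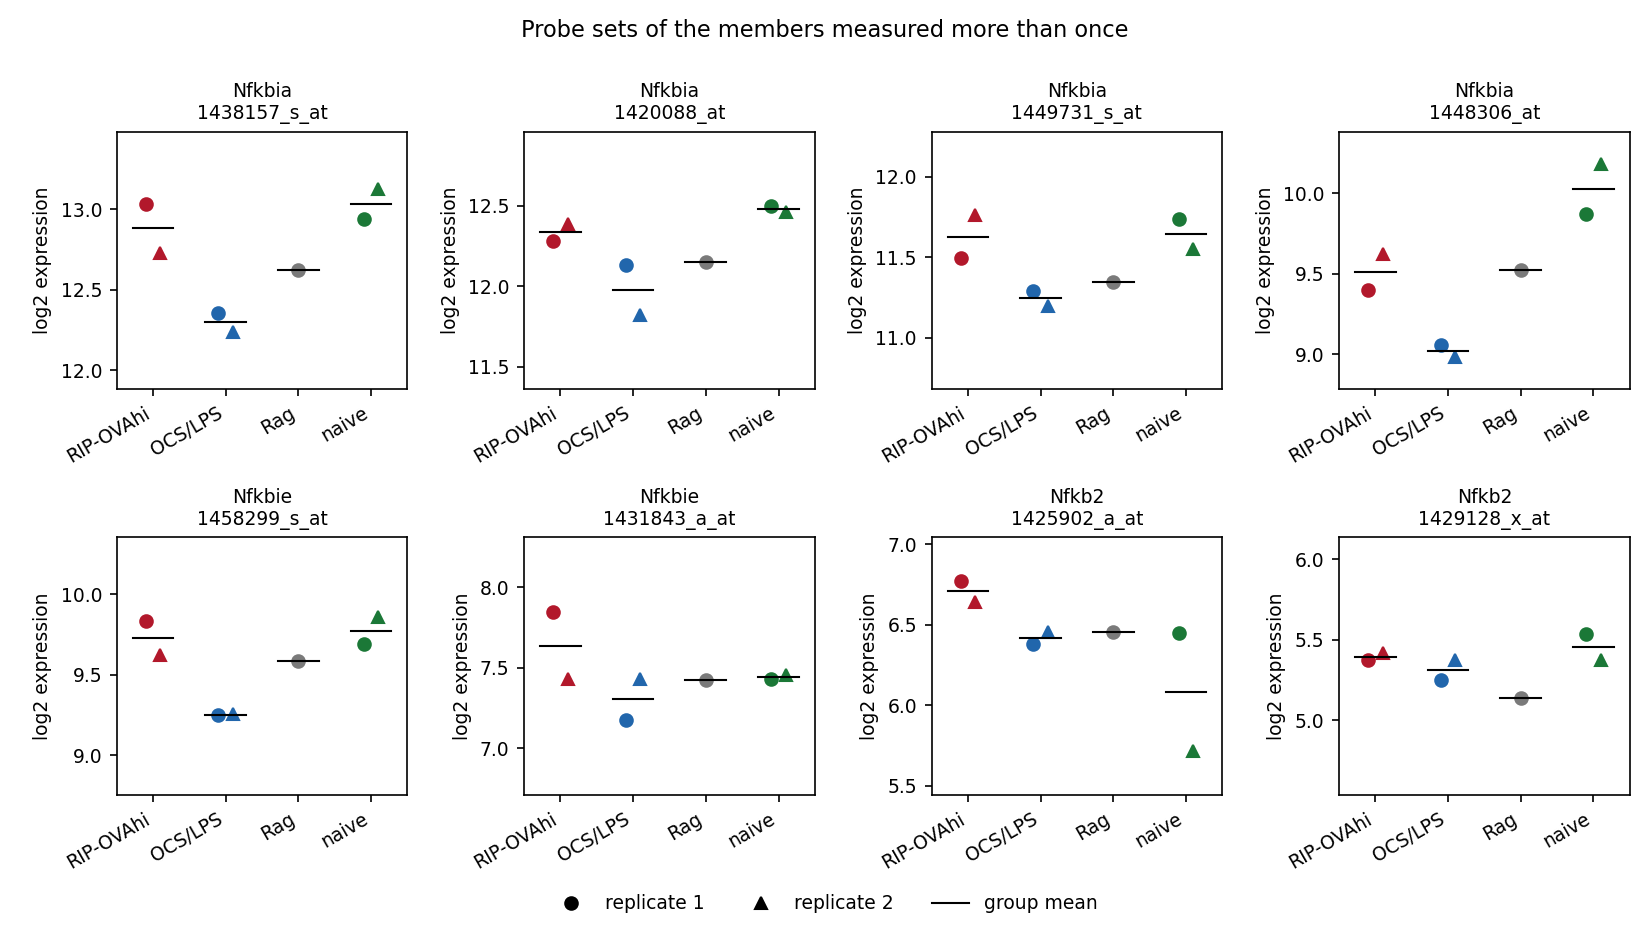
Each panel plots the log2 expression of 1 tested probe set of Nfkbia, Nfkbie or Nfkb2 on every array, with groups on the x axis, circles and triangles for replicates 1 and 2 and bars at group means. The OCS/LPS mean is the lowest of the 4 groups in every Nfkbia panel, while the probe sets of Nfkbie and of Nfkb2 differ from each other in pattern.

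Genes around the family were described from 5 lists of the pathway, none of which holds a member. Of 26 genes listed as targets of NF-kB in lymphocytes, 19 were tested. Of these, 8 were higher and 5 lower in RIP-OVAhi against naive, where 18.1% of all tested genes were higher and 11.6% lower. In OCS/LPS 5 were higher and 4 lower, where 20.5% of all tested genes were higher and 12.3% lower. Irf4, a transcription factor induced by antigen receptor signals and known to depend on Rel, averaged 8.49 in RIP-OVAhi cells and 8.39 in OCS/LPS cells and was near background in Rag (2.13) and naive cells (2.69). Where every array of a group lay under log2 5, a difference is given as a bound, with that group set to log2 5. Irf4 was at least 11.3-fold higher in RIP-OVAhi cells (adjusted p = 8.52e-05) and at least 10.5-fold higher in OCS/LPS cells (adjusted p = 6.26e-05) than in naive cells. Stx11, a syntaxin of cytotoxic granule release, rose by 2.93 (SE 0.15) and 3.38 (SE 0.15) in the same comparisons. Cd83, an activation-induced surface protein, read 9.65 and 9.53 in RIP-OVAhi cells, 6.61 and 7.28 in OCS/LPS, 3.15 in Rag and 4.35 and 5.27 in naive cells.

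Between RIP-OVAhi and OCS/LPS cells, 4 of the 19 tested targets were called higher in RIP-OVAhi and 0 lower, with a median of 0.19. Over all tested genes, 1.61% were called higher and 1.3% lower. Cd83 was higher by 2.65 (SE 0.35, adjusted p = 0.0211), Nr4a1, an orphan nuclear receptor gene induced by the antigen receptor, by 1.61 (SE 0.19, adjusted p = 0.0149), and Ccnd2, which encodes cyclin D2, by 1.12 (SE 0.15, adjusted p = 0.0209). Nr4a1 read 9.53 and 9.03 in RIP-OVAhi against 7.68 on both arrays of OCS/LPS cells. Ccnd2 read 11.72 and 11.77 in RIP-OVAhi cells, 10.76 and 10.49 in OCS/LPS, 11.90 in Rag and 12.44 and 12.64 in naive cells. Both antigen-driven groups thus lay below naive for Ccnd2, OCS/LPS further than RIP-OVAhi. None of the 19 was called between Rag and naive, where 2.73% of all tested genes were.

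Among 16 receptors that feed the pathway, 10 were tested. Tnfrsf9, which encodes the costimulatory receptor 4-1BB, rose by 2.03 in RIP-OVAhi against naive (SE 0.24, adjusted p = 0.00251) and by 1.48 against OCS/LPS (SE 0.24, adjusted p = 0.0354). The receptor chains of interleukin-18, which signal through the same adaptor as Toll-like receptors, were lowest in RIP-OVAhi cells: Il18rap averaged 5.44 in RIP-OVAhi cells, 8.38 in OCS/LPS, 9.48 in Rag and 6.56 in naive cells, and it fell by 2.93 in RIP-OVAhi cells against OCS/LPS (SE 0.16, adjusted p = 0.00106). Il18r1 fell by 2.86 against naive in RIP-OVAhi (SE 0.54, adjusted p = 0.0125) and by 1.79 in OCS/LPS cells (SE 0.54, adjusted p = 0.0498). Tnfrsf25, which encodes the death receptor DR3, averaged 4.27 in RIP-OVAhi cells and 4.08 in OCS/LPS cells, against 6.47 in naive cells. It was at least 2.78-fold lower in each than in naive cells (adjusted p = 0.0184 in RIP-OVAhi and 0.0128 in OCS/LPS). In all, 3 of the 10 were higher and 3 lower in RIP-OVAhi against naive, and 4 and 2 in OCS/LPS. Shares over all tested genes were 18.1% higher and 11.6% lower in RIP-OVAhi, and 20.5% and 12.3% in OCS/LPS.

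The 10 tested kinases of the pathway included 2 higher and 2 lower in RIP-OVAhi cells and 2 higher and 3 lower in OCS/LPS against naive. Shares over all tested genes were 18.1% higher and 11.6% lower in RIP-OVAhi, and 20.5% and 12.3% in OCS/LPS. Map3k14, which encodes NIK, the kinase of the alternative pathway, averaged 4.48 in RIP-OVAhi cells, 4.14 in OCS/LPS, 5.59 in Rag and 5.72 in naive cells. It was at least 1.65-fold lower than naive in each antigen-driven group (adjusted p = 0.00516 in RIP-OVAhi and 0.00191 in OCS/LPS). Map3k7, the gene of TAK1, which activates the IkB kinase, rose by 0.93 (SE 0.20) and 0.95 (SE 0.20). Map3k8 rose in all divided groups against naive, by 0.86 (SE 0.24, adjusted p = 0.0436) in RIP-OVAhi cells, 0.88 (SE 0.24, adjusted p = 0.0376) in OCS/LPS and 1.79 (SE 0.30, adjusted p = 0.0401) in Rag cells. Against Rag, Ikbkg, the regulatory subunit of the IkB kinase, fell by 0.65 (SE 0.14) in RIP-OVAhi cells and 0.69 (SE 0.14) in OCS/LPS cells, and Ikbkb, a catalytic subunit, fell by 1.0 (SE 0.26) in OCS/LPS cells.

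Of the 11 tested genes between the antigen receptor and the kinase, 1 was higher and 2 lower in RIP-OVAhi cells, and 2 higher and 1 lower in OCS/LPS against naive. Shares over all tested genes were 18.1% higher and 11.6% lower in RIP-OVAhi, and 20.5% and 12.3% in OCS/LPS. Malt1, the protease of the complex that links the receptor to NF-kB, read 8.27 and 8.24 in RIP-OVAhi cells, 8.70 and 8.59 in OCS/LPS cells, 9.89 in Rag and 9.95 and 8.94 in naive cells. Both antigen-driven groups lay below the others. In RIP-OVAhi cells it fell by 1.19 against naive (SE 0.32, adjusted p = 0.0361) and by 1.63 against Rag (SE 0.39, adjusted p = 0.0394), while OCS/LPS differed from naive by -0.80 (SE 0.32, adjusted p = 0.103). Sharpin, part of the linear ubiquitin ligase, fell by 0.56 (SE 0.13) in RIP-OVAhi cells and 0.59 (SE 0.13) in OCS/LPS cells, while Traf5 rose by 0.52 (SE 0.13) and 0.75 (SE 0.13). Ube2n, which encodes a ubiquitin-conjugating enzyme, rose by 0.83 (SE 0.17) in OCS/LPS cells, and Traf2 was higher in RIP-OVAhi than in Rag cells by 0.84 (SE 0.21). Of 11 further tested inhibitors and deubiquitinases, 1 was higher in RIP-OVAhi and 2 in OCS/LPS cells against naive, and 0 were lower. Of all tested genes, 18.1% and 20.5% were higher, and 11.6% and 12.3% lower. Otud7b rose by 1.31 in RIP-OVAhi (SE 0.17, adjusted p = 0.00367) and 0.98 in OCS/LPS cells (SE 0.17, adjusted p = 0.00891). Otulin, which removes linear ubiquitin chains, rose by 0.61 (SE 0.16, adjusted p = 0.0353) in OCS/LPS cells. The IkB relatives Nfkbib and Nfkbiz were called in no comparison.

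**Figure D4:**
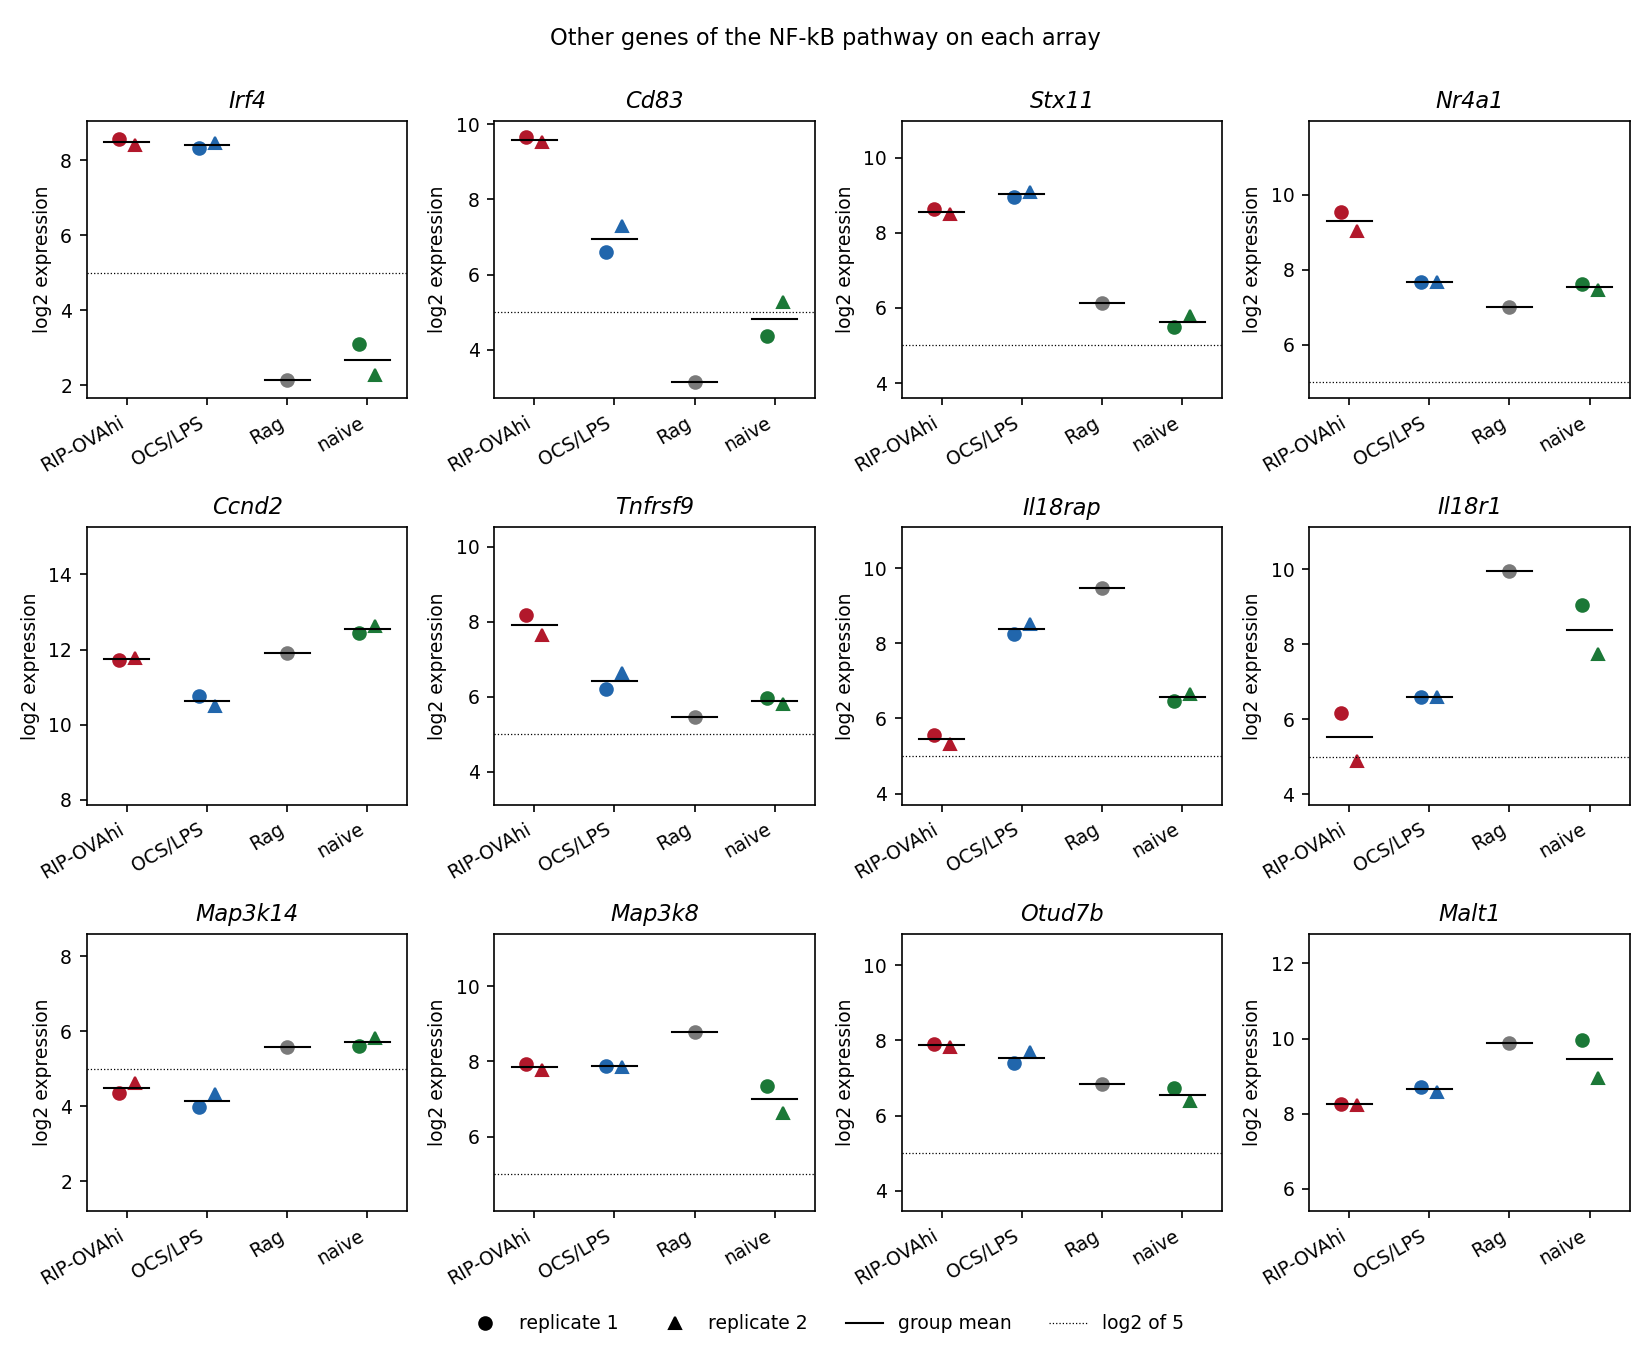
Each panel plots the log2 expression of 1 pathway gene on every array, with groups on the x axis, circles and triangles for replicates 1 and 2, bars at group means and a dotted line at log2 5, under which values are near background. Irf4 and Stx11 are high in both antigen-driven groups, Cd83, Nr4a1 and Tnfrsf9 are highest in RIP-OVAhi cells, and Il18rap and Il18r1 are lowest there.

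Over the 7 arrays the genes most like each member by Pearson correlation were sought among 2872 tested genes outside the sex chromosomes whose values ranged over at least 1 log2 unit. Closest to Rel were Hsdl2 (r = 0.994), St3gal1 (r = 0.983) and Lxn (r = 0.980). Closest to Tnfaip3 were Eomes (r = 0.967), Abcg3 (r = 0.951) and Bnip5 (r = 0.949), and closest to Relb were Tank (r = 0.963), Ephx1 (r = 0.959) and Sdhaf1 (r = 0.932). Nfkbia ran closest to Btbd11 (r = 0.937), Cd55 (r = 0.934) and Sbk1 (r = 0.929), and Nfkbie to Pmepa1 (r = 0.947), Ramp1 (r = 0.947) and Fcsk (r = 0.932). For Nfkb2 the highest values were Lax1 (r = 0.981), Med23 (r = 0.978) and Pnpla6 (r = 0.973), and for Nfkbid they were Pvr (r = 0.958), Hook1 (r = 0.948) and Nat8f4 (r = 0.920). The highest values for Rela and Bcl3 were r = 0.795 with Aif1l and r = 0.748 with Polr2a. With 7 arrays in 4 groups these values describe a shared order of groups and no more.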

How the data were processed

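Affymetrix mouse arrays measured RNA of sorted OT-I cells. Per the labels' protocols, 100 ng of total RNA per array went through a 2-cycle labelling kit. The deposited values are log2 expression per probe set, made by the authors with GCRMA per the submitters' processing notes; its version is not given in the sources read. GCRMA models background from probe sequence and quantile-normalizes all arrays, which hides a shift common to most genes. There is no read depth; the number of arrays limits the precision.

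Of 45101 probe sets, 34958 had 1 symbol, 932 several and 9211 none; 34754 could be matched to RefSeq (GRCm38.p6) through Entrez identifiers. Each gene took its probe set with the highest mean, and 8203 genes with log2 of at least 5 on at least 2 arrays were tested. All 7 arrays were fitted with 1 mean per group in limma 3.58.1 (R 4.3.3, 3 residual degrees of freedom, prior of 2.93). Two-sided p-values, adjusted by Benjamini-Hochberg over all tested genes, were called under 0.05. For the lone Rag array the spread of the other groups was assumed. The 2 arrays of a group came from pools of different sex, as given below. The labels do not name separate experiments, so p-values measure only how these arrays vary.

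Same-numbered arrays deviated together (r = 0.132 to 0.348 between groups), and without genes of the sex chromosomes r was -0.06 to 0.20. Xist read 2.67 to 2.74 on arrays numbered 1 and 12.7 to 13.0 on those numbered 2. Kdm5d, a gene of the Y chromosome, read 8.63 to 8.82 on arrays numbered 1 and 2.57 to 2.64 on those numbered 2. Arrays numbered 1 thus held male cells and those numbered 2 female cells. The lone Rag array held male cells only, while each other group had an array of each sex. The block by replicate number is given where it changed a call.

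The members, lists and tests were chosen with earlier results of these data known. Named pathway genes were up to 3 called members per list and comparison by size. The procedure was tested on simulated data. The 17 alternatives are given in the closing section.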

Additional observations from a re-analysis of the deposited data

Results flagged for a closer look

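Rel was marked for a closer look because its change against naive cells differed between RIP-OVAhi and Rag cells by a test of the difference itself: log2 1.45 (SE 0.30, adjusted p = 0.0262), with both RIP-OVAhi arrays above the Rag array. The Rag group has 1 array and a later time point, so the spread in this test comes from the other groups. The Rag array also had the highest summed level of myeloid genes, and the part of this in the difference was not tested. The difference ranged from 1.19 to 1.71 over 16 alternatives, and 10 of them called it. The call was lost without any 1 of the RIP-OVAhi or OCS/LPS arrays (adjusted p = 0.0633 to 0.131), without a filter on low values (0.115) and with only these groups in the fit (0.114).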

How the results depend on the processing

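All 17 alternatives were run, 7 of which leave out 1 array; comparisons with Rag have no value without the Rag array. The 6 calls of members kept their sign in all 101 values, and none of the 891 member values that was called, in the main result or under an alternative, had the opposite sign there. Among differences without a call, 29 values changed sign. Of the calls, Rel in RIP-OVAhi against naive passed under every alternative (1.42 to 1.94, adjusted p = 0.00166 to 0.0491). Across members 28 values lost a call, 19 of them with an array left out, and 9 gained one. Members called under no filter on low values numbered 1 in RIP-OVAhi and 0 in OCS/LPS against naive and 0 in RIP-OVAhi against Rag. With only the groups compared they numbered 1 in RIP-OVAhi against naive and 0 in RIP-OVAhi against Rag. A filter at log2 6, and values under log2 5 set to 5, each gave 2 in RIP-OVAhi against Rag, the added gene being Relb (adjusted p = 0.0489 and 0.0479). With 1 array left out, members called ranged from 1 to 3 in RIP-OVAhi, 0 to 3 in OCS/LPS and 0 to 1 in Rag against naive, and from 0 to 3 in RIP-OVAhi against Rag; RIP-OVAhi against OCS/LPS and OCS/LPS against Rag kept 0.

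All genes called, 2429 in RIP-OVAhi and 2698 in OCS/LPS against naive, became 3866 and 4490 with every probe set tested, which tests more features. With only the groups compared there were 1601 in RIP-OVAhi against naive, 416 (239 in the main result) in RIP-OVAhi against OCS/LPS, and 0 in each comparison with Rag (224 in Rag against naive, 1373 in RIP-OVAhi against Rag and 1483 in OCS/LPS against Rag), where 1 residual degree of freedom is left. No filter gave 105 in RIP-OVAhi against OCS/LPS. With 1 array left out, genes called ranged from 807 to 3281 in RIP-OVAhi, 1018 to 3646 in OCS/LPS and 59 to 1622 in Rag against naive, 32 to 416 in RIP-OVAhi against OCS/LPS, 370 to 2549 in RIP-OVAhi against Rag and 397 to 2833 in OCS/LPS against Rag. The lowest count came without an array of RIP-OVAhi or OCS/LPS and the highest without a naive array; the cause was not tested.

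With the replicate number as a block, members called numbered 2 in RIP-OVAhi and 2 in OCS/LPS against naive and 1 in RIP-OVAhi against Rag. Nfkbie in OCS/LPS cells was the only member whose call it changed.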
